A study of Arabidopsis thaliana with 3 samples.

Results

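In 2327 places on the 5 nuclear chromosomes of Arabidopsis thaliana, a region called in chromatin of the line OX TZP and a region called in chromatin of the line OX ZFHD10 covered much of the same DNA. Such a match required that the stretch shared by an OX TZP island and an OX ZFHD10 island made up at least 50% of the length of each, an island being a continuous region that the authors' peak caller found enriched in reads. The 2327 pairs, which used each island at most once, were 40.2% of the 5786 pairs of islands that overlapped at all. They held 19.9% of the 11675 nuclear OX TZP islands (95% Wilson interval 19.2 to 20.7%) and 14.4% of the 16122 nuclear OX ZFHD10 islands (13.9 to 15%). The positions of the islands in both lists chose the pairs, so that the overlap is a description and was not tested.

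The series held 3 libraries of whole seedlings, 1 each of OX TZP (overexpressing TZP), OX ZFHD10 (overexpressing ZFHD10) and the wild type Col-0, and the Col-0 library was not analysed here. All seedlings were 7 days old and had been kept in low blue light, and chromatin was precipitated with an antibody against green fluorescent protein (GFP). In full, the overexpressing lines are named OX-TZP-GFP and OX-ZFHD10-GFP. The promoters that drove the introduced genes, the number of independent lines and the number of seedlings pooled are not given in the sources used here. With 1 library per line, no value has a replicate error and no test was made. Intervals cover counting error only. Whether PCR copies of a molecule were removed before counting is unknown, so the counts may include such copies.

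TZP is a nuclear zinc-finger protein of light signalling that promotes growth of the seedling stem, the hypocotyl, in blue light. ZFHD10 belongs to the zinc-finger homeodomain (ZF-HD) family of plant transcription factors, and the 2 proteins have been reported to interact. In light signalling more widely, photoreceptors such as cryptochromes and phytochromes act through COP1/SPA complexes and the transcription factors HY5 and PIF4 on genes of hormones, the cell wall, pigments and the clock.

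The OX TZP list held 2112203 reads in 11684 islands, of which 9 lay on organelle genomes and were left out, and the OX ZFHD10 list held 4731495 reads in 16122 islands. Total depth of the libraries is unknown, because the lists hold only reads inside islands. Read densities, in reads per kb of island, were therefore ranked within a list and not compared between lists. The matched islands held 20.4% of the nuclear reads of OX TZP and 16.1% of those of OX ZFHD10.

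The stretches shared by matched pairs were short and of a gene's scale. Their median length was 700 bp, 5% were 400 bp or shorter and 5% were 1600 bp or longer, and together they covered 1925 kb. The islands of a pair had a median length of 950 bp in OX TZP and also of 950 bp in OX ZFHD10. The shared stretch made up a median of 80% of the OX TZP island and 78.6% of the OX ZFHD10 island, values that the rule held at 50% or more. The ratio of the shared to the joint length of the islands had a median of 0.612.

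Exact coincidence was uncommon. The islands of a pair had the same start and end in 10 pairs, and in 253 pairs (10.9%) both ends lay within 100 bp of each other. The OX TZP island lay inside the OX ZFHD10 island in 633 pairs (27.2%), and the OX ZFHD10 island lay inside the OX TZP island in 515 (22.1%). The remaining 1169 pairs were shifted, with the OX TZP island toward lower coordinates in 585 and toward higher coordinates in 584, so that neither line lay to a given side along the chromosome. Midpoints of the islands of a pair were a median of 175 bp apart.

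**Figure D1:**
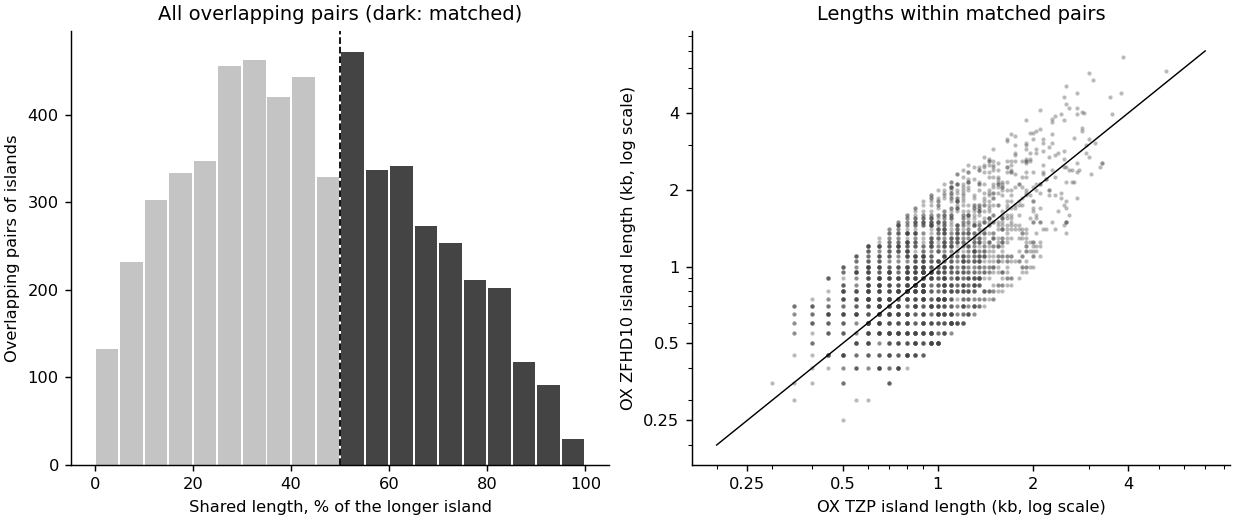
Left, the number of overlapping pairs of islands by the shared length as a percent of the longer island, with the 2327 matched pairs dark, the other pairs light and the 50% rule dashed. Right, the island lengths of each matched pair in kb on log scales (OX TZP on the x axis, OX ZFHD10 on the y axis), with a line of equal length; both lists have a median of 950 bp here.

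The 50% limit cut through a continuous range of overlaps, and 175 pairs lay exactly on it. The longest pair at the limit was at VCS, a gene of mRNA decapping, and AT3G13310 on chromosome 3, where the shared 2550 bp were the whole OX TZP island (177 reads per kb) and 50% of the OX ZFHD10 island (291 reads per kb). The next 2 on the limit lay at LRB1 and GBF3 (193 reads per kb in OX TZP, 289 in OX ZFHD10) and at OFP10, CAF1b and MS1 (185 in OX TZP, 340 in OX ZFHD10). Just outside, a pair at AT1G22190 and AT1G22200 shared 1900 bp, 49.4% of its OX ZFHD10 island, with densities of 213 in OX TZP and 349 in OX ZFHD10. A pair on chromosome 1 at no gene end, with 193 reads per kb in OX TZP and 196 in OX ZFHD10, and a pair at AtPOT1b and NHL3, with 138 in OX TZP and 316 in OX ZFHD10, each reached 49.1%. These 6 pairs are given to show where the limit fell, and nothing is read from their densities.

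Matched pairs were found along all 5 chromosomes. There were 597 on chromosome 1, 374 on chromosome 2, 478 on chromosome 3, 339 on chromosome 4 and 539 on chromosome 5. The matched share of OX TZP islands lay between 19.1% and 21.5% on each chromosome, and that of OX ZFHD10 islands between 13.9% and 15.4%. In bins of 100 kb that hold more pseudogenes than protein-coding genes lay 14 pairs (0.602%), against 513 (4.39%) of all nuclear OX TZP islands and 194 (1.2%) of all nuclear OX ZFHD10 islands.

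The matched pairs lay mostly at the ends of genes. A gene end was taken as a window that begins 1000 bp outside a protein-coding gene and reaches 100 bp into it, at each of its ends, since the gene table has no strand and does not tell which end is the start. The middle of the shared stretch fell in such a window in 1783 pairs (76.6%, Wilson interval 74.9 to 78.3%), deeper inside a gene in 328 (14.1%) and between genes in 216 (9.28%).

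The difference in place between matched islands and the rest of the list was larger in OX TZP than in OX ZFHD10. Of matched OX TZP islands, 73.4% had their midpoint at a gene end (71.6 to 75.2%), against 55.7% of OX TZP islands that overlapped the other list without matching and 32.4% of those that met no OX ZFHD10 island. Islands inside gene bodies made up 17.2% of matched OX TZP islands and 52.8% of those that met none. Of matched OX ZFHD10 islands, 77.8% lay at a gene end (76 to 79.4%), against 74.2% of those that overlapped without matching and 73.3% of those that met no OX TZP island. A match demands an OX ZFHD10 island at the same place, and 74.2% of that whole list lay at gene ends, so the rule itself bears on the place of the matched OX TZP islands.

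**Figure D2:**
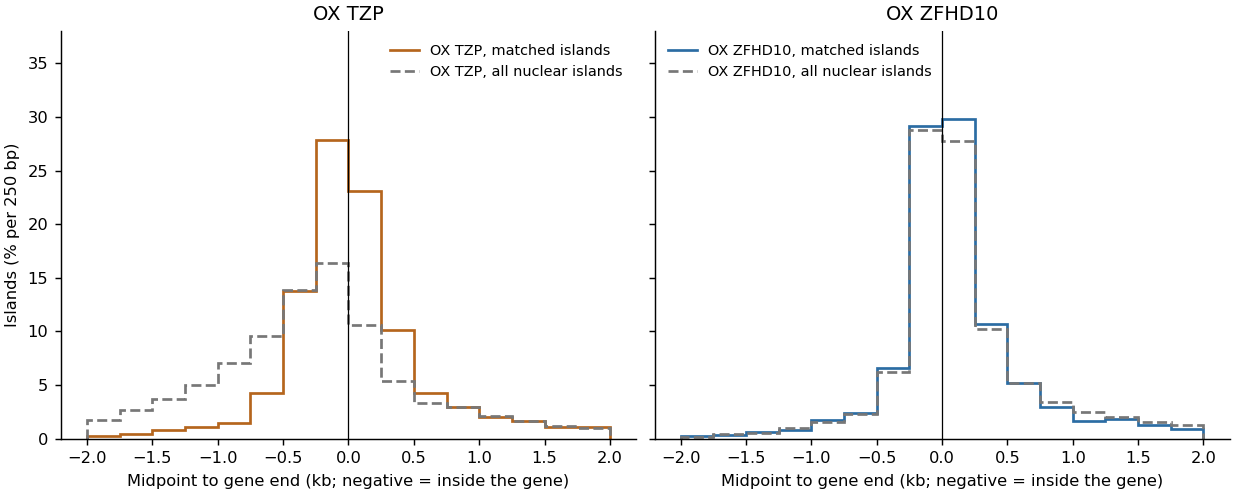
Share of islands, in percent per 250 bp, by the distance from the island's midpoint to the nearest end of a protein-coding gene, with negative distances inside the gene; solid lines are matched islands and dashed lines all nuclear islands of the same line, OX TZP left and OX ZFHD10 right. Matched OX TZP islands peak within 250 bp of a gene end (27.9% inside and 23.1% outside, against 16.4% and 10.6% of all OX TZP islands), while the OX ZFHD10 curves nearly coincide (29.2% and 29.8% of matched islands, against 28.8% and 27.8% of all).

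Many shared stretches touched the ends of several genes at once. They met the end of at least 1 protein-coding gene in 2087 pairs (89.7%), of which 769 met the ends of 1 gene, 1167 of 2 genes and 151 of 3 or more genes. Counted by whole islands, 59.1% of matched OX TZP islands touched the ends of 2 or more genes, against 36.9% of all nuclear OX TZP islands. For OX ZFHD10 these shares were 60% of matched islands and 54.3% of all. Where a stretch lies between neighbouring genes, the gene it may belong to cannot be told apart from its neighbour.

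The matched pairs touched 3395 of 27444 protein-coding genes at an end (12.4%), 2507 over the body (9.13%) and 3520 in either way (12.8%). Islands of each line separately lay at an end of far more genes, with OX TZP at 11130 (40.6%), OX ZFHD10 at 17863 (65.1%) and both lines at 8673 (31.6%). Of those 8673 genes, 39.1% had a matched pair there; at the others the islands of the lines were at other positions, at the other end or too unequal in length. A set of 174 genes had 2 or more matched pairs at their ends, and 2 genes had 3, the receptor-like kinase gene CRK3 and the protein kinase gene SIP4. By stricter and looser rules the share of genes at an end was 19.8% with an overlap of at least 30%, 3.57% with 75%, 0.619% with 90% and 4.62% with islands at or above the median density of their list, and 8.12% of genes were the nearest to a pair. Genes with a symbol of their own, in contrast to a bare locus number, made up 45.8% of the matched genes and 37.8% of all protein-coding genes; 15% of genes with a symbol were matched, against 10.8% of genes without one. Nearly every gene of the lists and families below was found by a name, so that 15% is the nearer background for them.

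Read density in the matched islands was somewhat above that of the whole lists, with wide overlap. In OX TZP the matched islands had a median of 167 reads per kb (5th to 95th percentile 144 to 204), against 165 in islands that overlapped without matching, 161 in islands that met no OX ZFHD10 island and 163 in all. In OX ZFHD10 the medians were 275 reads per kb in matched islands (195 to 438), 275 in islands that overlapped without matching, 257 in islands that met no OX TZP island and 262 in all. Of the matched islands, 59% in OX TZP and 57.5% in OX ZFHD10 were above the median of their own list. The differences between these medians were small beside the spread of densities within each group.

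The matched share moved with density in each list. With each list cut into 10 classes of nearly equal number, it was 11.9% in the class of lowest density in OX TZP, 25.9% in class 9 and 21% in the densest. In OX ZFHD10 it stayed between 10.4% and 14.2% over the lower 7 classes and was 15.9%, 19.3% and 21.2% in the upper 3. Island length moves with density too, so densities were also set side by side at like length. Among islands over 500 and up to 1000 bp, the largest of 5 length classes, the median in OX TZP was 170 for matched islands, 168 for those that overlapped without matching and 163 for those that met none, and in OX ZFHD10 these were 268, 253 and 245. In islands of up to 500 bp the matched islands hardly stood out, with 196, 198 and 194 in OX TZP and 264, 269 and 264 in OX ZFHD10. In islands over 2000 bp the medians were 166, 157 and 165 in OX TZP and 306, 306 and 296 in OX ZFHD10. The order of the groups thus depended on the length class.

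A dense island in one line said little about the density of its partner. Across the 2327 pairs Spearman's rho between the densities was 0.13 and Pearson's r 0.11, and across the 3459 overlapping pairs that did not match they were 0.14 and 0.11; the islands of a pair share most of their DNA and its base composition, and these values are a description. Both islands were above the median of their lists in 830 pairs (35.7%), the OX TZP island alone in 542, the OX ZFHD10 island alone in 508 and neither in 447 (19.2%). In 40 pairs (1.72%) both islands were among the densest 10% of their lists.

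**Figure D3:**
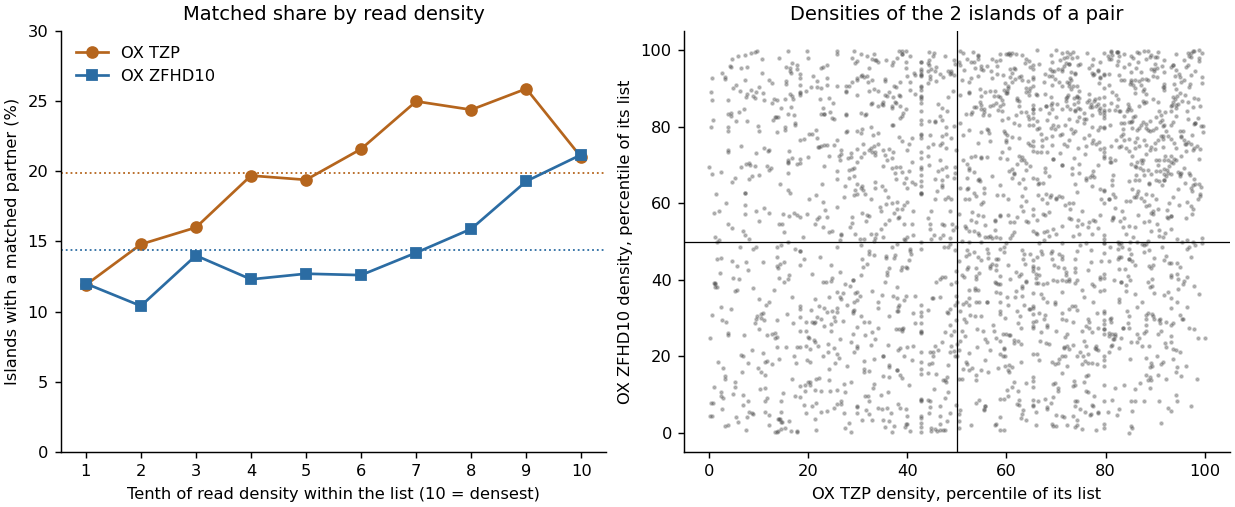
Left, the percent of islands with a matched partner in each of 10 density classes of its own list (circles, OX TZP; squares, OX ZFHD10; dotted lines, the whole lists at 19.9% and 14.4%). Right, each matched pair by the density percentile of its OX TZP island (x axis) and its OX ZFHD10 island (y axis), with lines at the list medians; the upper right part holds 830 of 2327 pairs.

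The pairs that ranked highest in both lists together lay at genes of varied function. The best sum of ranks was at AT2G22660 on chromosome 2, with 248 reads per kb in OX TZP (9631551 to 9631950; 95% exact Poisson interval 201 to 301) and 730 in OX ZFHD10 (9631501 to 9632100; 663 to 802). Next came the space between AT3G15480 and AT3G15490, with 287 in OX TZP (244 to 336) and 537 in OX ZFHD10 (495 to 582). These pairs stood at or above percentile 98.7 of each list, where 100 is the densest. The others of the first 5 were at AT3G27520 and the golgin gene GC6 (228 in OX TZP, 582 in OX ZFHD10), at the receptor-like kinase gene SRF3 (227 in OX TZP, 581 in OX ZFHD10) and between AT5G65980 and AT5G65990 (222 in OX TZP, 532 in OX ZFHD10).

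WRKY6, a transcription factor gene of senescence and phosphate responses, had 2 dense pairs in its neighbourhood on chromosome 1. The pair at the gene's end held 251 reads per kb in OX TZP (23020101 to 23020750) and 465 in OX ZFHD10 (23020151 to 23021000). A further pair, beyond the gene-end window, held 216 in OX TZP (23021751 to 23023000) and 527 in OX ZFHD10 (23021551 to 23023050). The first 10 also held SIP3, a protein kinase of the family that works with calcium sensors (251 in OX TZP, 448 in OX ZFHD10), HEMA1, which makes an early enzyme of chlorophyll synthesis (218 in OX TZP, 476 in OX ZFHD10), and a pair between genes on chromosome 3 (222 in OX TZP, 469 in OX ZFHD10). Of these 10 pairs, 7 had the middle of the shared stretch at a gene end.

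The densest matched OX TZP island was in the TZP gene itself, and its partner was an ordinary OX ZFHD10 island. It ran from 17527151 to 17530300 on chromosome 5 and held 594 reads per kb (568 to 622), rank 3 among 11675 in OX TZP. Its partner ran from 17527201 to 17530250 and held 227 (210 to 244), percentile 24.7 of OX ZFHD10. Both islands lay within the gene and reached neither end window, so that TZP is not among the 3395 genes. OX TZP carries an introduced TZP gene, and reads from extra copies cannot be told apart here from protein bound at the native gene. For ZFHD10, taken as HB23 (AT5G39760) from the synonyms of the gene table, islands of both lines lay at an end of the gene and no pair matched.

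The next densest matched OX TZP islands lay at OXS2, a zinc-finger gene of stress responses, with 341 reads per kb in OX TZP and 324 in OX ZFHD10, at AT4G33400 and SPPL1, a signal peptide peptidase-like gene (322 in OX TZP, 319 in OX ZFHD10), and at HVA22E and AT5G50740 (288 in OX TZP, 391 in OX ZFHD10). The densest matched OX ZFHD10 islands lay at ZCF61 and the MAP kinase gene MPK2, with 173 in OX TZP and 748 in OX ZFHD10, at LSM3A, of the RNA-binding Sm-like proteins, and AT1G21200 (171 in OX TZP, 718 in OX ZFHD10), between AT2G31800 and AT2G31810 (181 in OX TZP, 645 in OX ZFHD10), and at TBL25 and AT1G01440 (155 in OX TZP, 633 in OX ZFHD10). The partners of the 5 densest OX TZP islands ranged from percentile 24.7 of the OX ZFHD10 list at TZP to 99.4 at AT3G15480, with 80.1 at OXS2, 78.5 at SPPL1 and 93.1 at HVA22E. Those of the 5 densest OX ZFHD10 islands ranged from percentile 29.4 of the OX TZP list at TBL25 to 98.7 at AT2G22660. Between them were 66.2 at LSM3A, 69.9 at MPK2 and 81.1 at AT2G31800. Of all these partners, only those at TZP and TBL25 were below the median of their list.

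The 5 longest of the 10 pairs with identical ends varied widely in density. Their percentiles ran from 16.7 to 89.1 in OX TZP and from 13.7 to 98.9 in OX ZFHD10. The longest was 1750 bp on chromosome 4, from 484301 to 486050, between GBF2, a G-box-binding bZIP factor, and AT4G01130, with 149 reads per kb in OX TZP (percentile 16.7) and 401 in OX ZFHD10 (percentile 94). A pair of 1200 bp between genes on chromosome 5 had 192 in OX TZP and 210 in OX ZFHD10. Pairs of 1050 bp at the chloroplast protease gene DEG2 and AT2G47950 (167 in OX TZP, 500 in OX ZFHD10), of 1000 bp at AT5G03000 and AT5G03010 (161 in OX TZP, 217 in OX ZFHD10) and of 850 bp at NF-YA2, of a CCAAT-binding factor (166 in OX TZP, 264 in OX ZFHD10), completed the first 5.

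Some shared stretches covered whole genes. A total of 49 protein-coding genes lay entirely inside 49 shared stretches with a median length of 1700 bp. Their islands had a median density of 171 reads per kb in OX TZP (143 to 238) and 303 in OX ZFHD10 (192 to 418). Above the list median were 33 of the 49 in OX TZP and 34 in OX ZFHD10, beside 59% and 57.5% of all matched islands. These stretches are long, and OX ZFHD10 islands over 2000 bp had a median of 303 reads per kb, against 262 in that whole list. The longest stretch of any pair, 5250 bp from 5121301 to 5126550 on chromosome 3, covered the ethylene response factor gene ERF4, with 204 in OX TZP (192 to 216) and 334 in OX ZFHD10 (319 to 349).

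The following genes were among the longest such stretches, or were picked from the 49 after their values were seen. SZF1, a zinc-finger gene of the salt response, lay in 3850 bp with 217 reads per kb in OX TZP and 312 in OX ZFHD10, and WRKY11, a transcription factor gene of defence, in 3500 bp with 181 in OX TZP and 340 in OX ZFHD10. The stress genes SRO5 (200 in OX TZP, 313 in OX ZFHD10) and LEA14 (183 in OX TZP, 395 in OX ZFHD10) were covered too. So were DIC2, which makes a mitochondrial carrier (188 in OX TZP, 280 in OX ZFHD10), EXO, a growth gene induced by brassinosteroid (169 in OX TZP, 192 in OX ZFHD10), the arabinogalactan protein gene AGP1 (171 in OX TZP, 246 in OX ZFHD10), the plastocyanin gene PETE1 (154 in OX TZP, 246 in OX ZFHD10) and the histone genes HIS4 (158 in OX TZP, 214 in OX ZFHD10) and HTA13 (146 in OX TZP, 234 in OX ZFHD10). Histone genes are near-identical copies, and their reads may be split or shared between them.

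Of 237 located genes in 10 lists for light, hormones, growth, the clock, flowering, stress, pigment and reference genes, 44 had a matched pair at an end, and each list is read against the 12.4% of all protein-coding genes and the 15% of genes with a symbol. Stress response (9 of 19 genes, 47.4%), housekeeping (6 of 14, 42.9%) and the clock (7 of 21, 33.3%) were above both. Light signalling (6 of 38, 15.8%), cell wall expansion (3 of 20, 15%), photosynthesis and pigment (3 of 20, 15%) and flowering time (2 of 16, 12.5%) were near them. Auxin (4 of 41, 9.76%) and the ZF-HD and MIF family (1 of 17, 5.88%) were below. So was the joint list of brassinosteroid, gibberellin and growth bHLH genes (3 of 31, 9.68%), none of whose growth bHLH genes was matched. Among genes that had islands of both lines at an end, 7 of 11 clock genes (63.6%), 9 of 16 stress genes (56.2%) and 6 of 11 housekeeping genes (54.5%) were matched, against 39.1% of all such genes and 6 of 21 light signalling genes (28.6%). The lists were chosen with earlier results of these data known, so their shares are a description and were not tested.

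**Figure D4:**
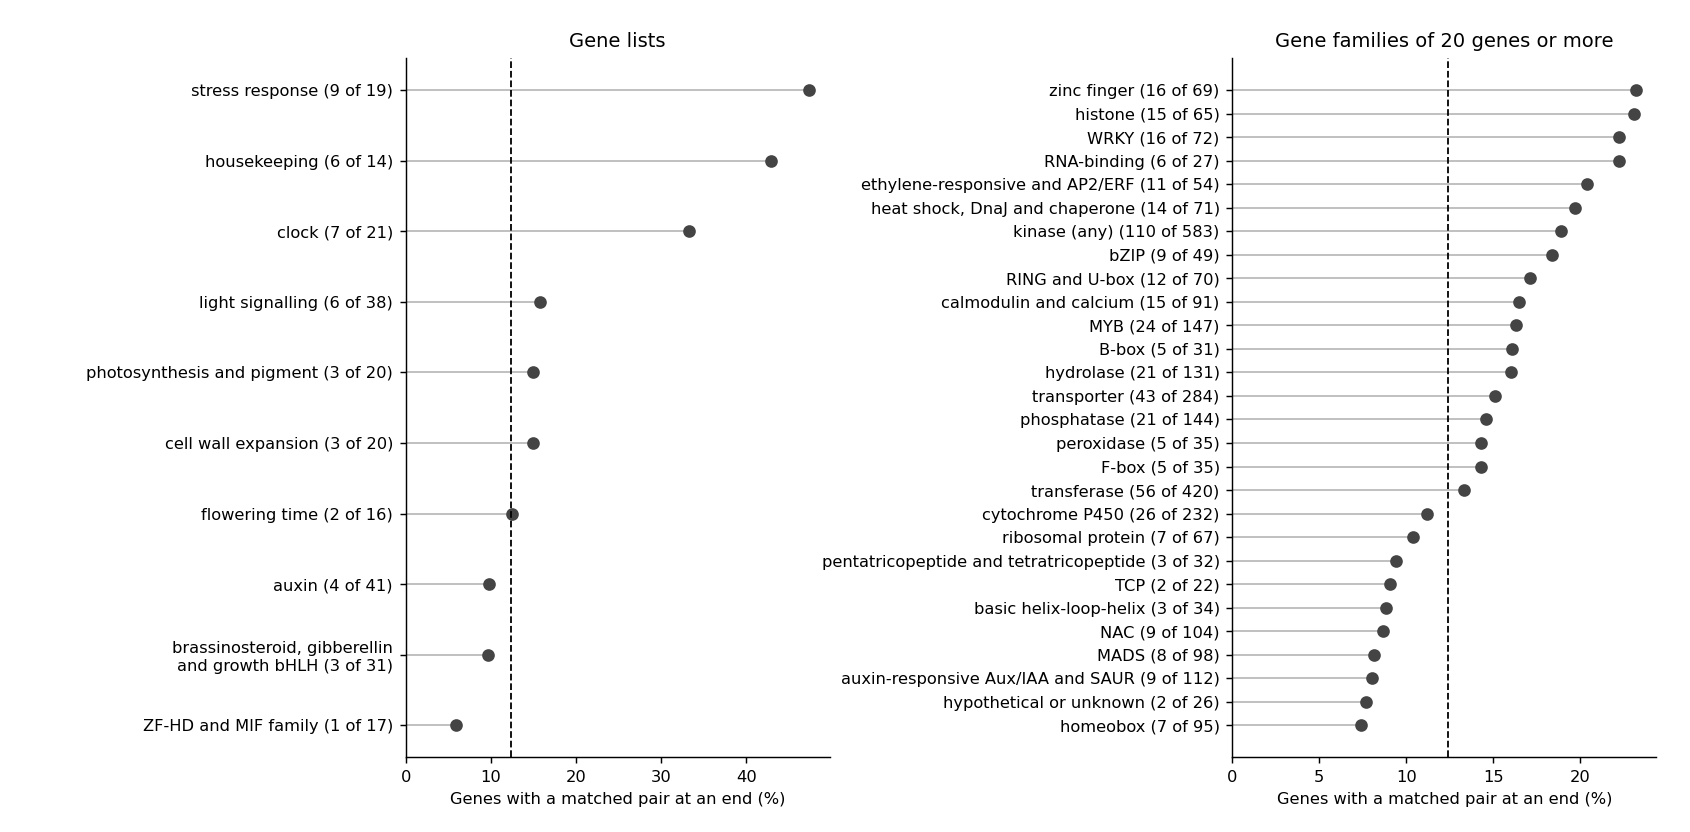
Percent of the protein-coding genes of each list (left) and of each family of 20 genes or more (right) that had a matched pair at an end, with the number of matched genes and of genes in parentheses; the dashed line is the 12.4% of all protein-coding genes. Stress response, housekeeping and clock genes lie farthest to the right on the left side, while families range from 7.37% for homeobox genes to 23.2% for zinc-finger genes.

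In light signalling the matched genes held a photoreceptor, repressors and transcription factors. HY5, the bZIP factor that drives light-grown development, had its pair in the space it shares with the neighbouring gene OCP3, with 177 reads per kb in OX TZP (150 to 206; 3594801 to 3595700 on chromosome 5) and 331 in OX ZFHD10 (288 to 378; 3594851 to 3595500). BBX22, a B-box protein that acts with HY5, had 170 in OX TZP and 330 in OX ZFHD10 in the space toward NADK3. CRY2, a blue light receptor, had 160 in OX TZP and 235 in OX ZFHD10. None of these islands was among the densest 10% of its list.

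The other light signalling pairs ranked higher in OX TZP than in OX ZFHD10. SPA3 and SPA4 make partners of the ubiquitin ligase COP1, and their pairs had 171 and 191 in OX TZP and 243 and 207 in OX ZFHD10. PIF4, the bHLH factor that promotes hypocotyl growth, had a pair across its end from 17885551 to 17886850 on chromosome 2, with 171 in OX TZP (149 to 195) and 236 in OX ZFHD10 (213 to 262). The photoreceptor gene UVR8, like TZP, was met over the body alone. Islands of both lines lay at an end of a further 15 light signalling genes without a matched pair there, among them PHYA, PHYB, HYH, PIF3, PIF5, PIF7 and FHY3.

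**Figure D5:**
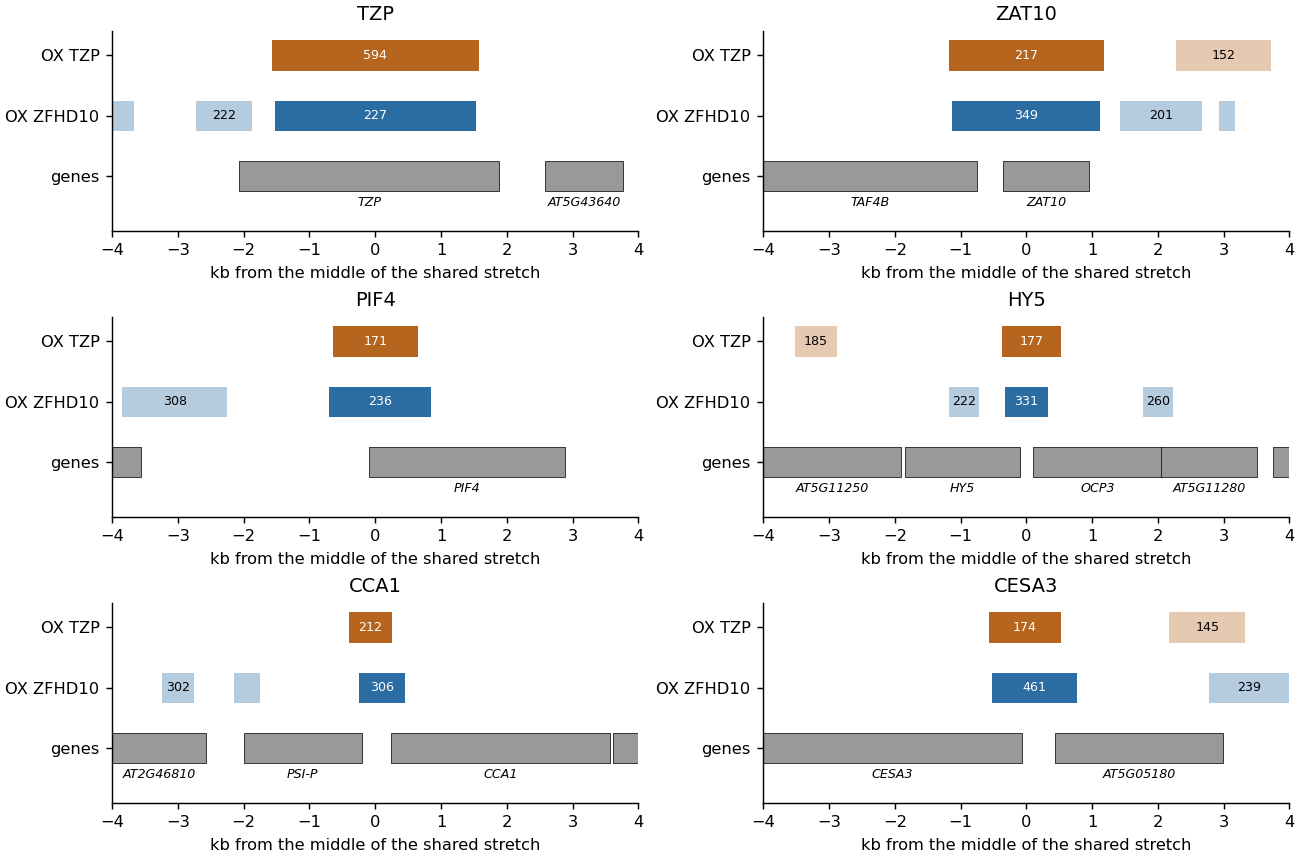
Islands and annotated genes around 6 matched pairs, in kb from the middle of the shared stretch, with OX TZP islands above OX ZFHD10 islands and gene bodies below; dark bars are the matched islands, pale bars other islands, and numbers are reads per kb. The pair at TZP lies inside the gene (594 in OX TZP, 227 in OX ZFHD10), that at ZAT10 covers the gene (217 and 349), and those at HY5, CCA1 and CESA3 bridge the space between 2 genes.

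Of the auxin genes, those with a matched pair act in response and in inactivation of the hormone. GH3.5, an enzyme that joins auxin to amino acids, had 186 reads per kb in OX TZP (168 to 205) and 476 in OX ZFHD10 (452 to 501), the densest of the OX ZFHD10 islands in these 4. ARF6, an auxin response factor that promotes growth, had 204 in OX TZP and 366 in OX ZFHD10, at percentiles 94.2 and 89.7 of the lists. The stretches at GH3.5 and ARF6 met the gene-end windows but no gene body. Their middles lay between genes, 1678 and 1038 bp from the nearest gene end. SAUR15, an early auxin-induced gene, had 164 in OX TZP and 283 in OX ZFHD10, and HAT2, an auxin-induced homeodomain gene, had 159 in OX TZP and 224 in OX ZFHD10. The transport genes PIN3 and AUX1 were met over the body alone, and no pair matched at the auxin receptors AFB1, AFB2, AFB3 and TIR1, although islands of both lines lay at an end of each.

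The 3 matched genes of the brassinosteroid, gibberellin and growth bHLH list were BIN2, the kinase that holds back brassinosteroid responses (175 in OX TZP, 342 in OX ZFHD10), BAS1, a cytochrome P450 that inactivates brassinosteroids (183 in OX TZP, 252 in OX ZFHD10), and the gibberellin receptor gene GID1C (160 in OX TZP, 200 in OX ZFHD10). In the cell wall list, the cellulose synthase genes CESA3 (174 in OX TZP, 461 in OX ZFHD10) and CESA1 (168 in OX TZP, 335 in OX ZFHD10) had pairs in the space before the next gene. XTH22, a wall-loosening enzyme gene, had 209 in OX TZP and 262 in OX ZFHD10. The OX ZFHD10 island at CESA3 was at percentile 98 of its list and that at XTH22 at percentile 49.9, so that the genes of a list did not share a level.

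The clock genes with a matched pair came from the morning and the evening part of the cycle. CCA1, the morning MYB factor, had a pair between itself and PSI-P, with 212 reads per kb in OX TZP (178 to 251; 19244951 to 19245600 on chromosome 2) and 306 in OX ZFHD10 (266 to 350; 19245101 to 19245800). PRR9, a morning repressor, had 226 in OX TZP and 262 in OX ZFHD10, and lies close to CCA1 on chromosome 2 with a pair of its own. TOC1, an evening repressor of CCA1, had 158 in OX TZP and 357 in OX ZFHD10. CHE, a TCP factor that represses CCA1, had 157 in OX TZP and 387 in OX ZFHD10. The stretch at CHE lay over the body of its neighbour AT5G08320 and not over that of CHE. The activator genes LNK1 (191 in OX TZP, 253 in OX ZFHD10) and RVE4 (171 in OX TZP, 273 in OX ZFHD10) were also matched, and RVE1 was the remaining one. The pairs of CCA1 and PRR9 ranked high in OX TZP, at percentiles 96.1 and 97.6, while those of TOC1 and CHE ranked high in OX ZFHD10, at 88.1 and 92.6. Of the evening complex, ELF3, ELF4 and LUX had islands of both lines at an end and no matched pair.

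Stress genes had the highest matched share of the lists, which were chosen with earlier results of these data known. The pairs of this list were at genes of cold, heat and the hormone abscisic acid, among others. ZAT10, a zinc-finger repressor that many stresses induce, was covered whole, with 217 reads per kb in OX TZP (198 to 236; 9647201 to 9649550 on chromosome 1) and 349 in OX ZFHD10 (325 to 375; 9647251 to 9649500). ZAT12, its relative, was covered too, with 196 in OX TZP and 330 in OX ZFHD10. The cold factor gene CBF1 (192 in OX TZP, 246 in OX ZFHD10), ABI1, a phosphatase that holds back abscisic acid responses (176 in OX TZP, 275 in OX ZFHD10), and the chaperone genes HSP101 (181 in OX TZP, 260 in OX ZFHD10) and HSP18.2 (180 in OX TZP, 323 in OX ZFHD10) followed. The stretch at HSP18.2 lay over the body of its neighbour EXO70H7 and not over that of HSP18.2. CBF2, NCED3 and RD29A were the other 3. Over all 9 the densities ran from 165 to 217 in OX TZP and from 192 to 349 in OX ZFHD10. The 5th to 95th percentile of all matched islands was 144 to 204 in OX TZP and 195 to 438 in OX ZFHD10. The 9 thus reached above that range in OX TZP and below it in OX ZFHD10.

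The housekeeping genes, commonly used as references of constant expression, were matched about as often as the stress genes. UBQ10, a polyubiquitin gene, had 199 reads per kb in OX TZP and 297 in OX ZFHD10. The chaperone gene HSC70-1 had 208 in OX TZP and 292 in OX ZFHD10, but that stretch lay over the body of its neighbour Hsp70-2 alone. The translation factor gene EIF4A1 (158 in OX TZP, 344 in OX ZFHD10), UBQ5 (156 in OX TZP, 317 in OX ZFHD10), UBC9 (167 in OX TZP, 240 in OX ZFHD10) and the glycolysis gene GAPC1 (168 in OX TZP, 228 in OX ZFHD10) were the others. The stretch at EIF4A1 lay over the body of its neighbour AT3G13930 and not over that of EIF4A1. Ubiquitin genes have near-identical copies, so their values are uncertain. A high matched share was thus found for reference genes as well as for stress and clock genes, and with 1 library per line it has no error across samples.

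Among pigment genes, CHS, the first enzyme gene of flavonoid synthesis, had 180 in OX TZP and 302 in OX ZFHD10, PSAD-1 of photosystem I had 156 in OX TZP and 348 in OX ZFHD10, and HEMA1 is given above. The flowering genes LFY (180 in OX TZP, 183 in OX ZFHD10) and CDF2 (149 in OX TZP, 220 in OX ZFHD10) had pairs of low OX ZFHD10 density, at percentiles 2.31 and 20. In the family of ZFHD10 itself the single matched gene was MIF3, a small zinc-finger protein gene without a homeodomain (167 in OX TZP, 229 in OX ZFHD10), while 8 other members had islands of both lines at an end and none matched.

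By the words of their names, 3115 protein-coding genes fell into 30 families, and 468 of them were matched (15%), against 2927 of the 24329 genes in none (12%). Family genes were found by name, and their 15% equals the 15% of all genes with a symbol. Genes whose names hold kinase words, called kinases here, were the most numerous, with 110 of 583 genes (18.9%). Transferases (56 of 420, 13.3%), transporters (43 of 284, 15.1%), cytochrome P450 genes (26 of 232, 11.2%) and MYB genes (24 of 147, 16.3%) followed. These counts follow the size of the families. Of the 5, the kinases were the farthest above the 12.4% of all genes and the 15% of genes with a symbol. Transporters and MYB genes were near the 15%, and transferases and cytochrome P450 genes below it. Names cover a small part of the genes, so the counts leave out members without a name. They also take in genes that are not members, such as FBH4, counted both as a kinase and as a basic helix-loop-helix gene.

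Among families of 20 genes or more, the shares next to and above that of the kinases were those of transcription factors, chromatin proteins, chaperones and RNA-binding proteins. Zinc-finger genes (16 of 69, 23.2%), histones with their modifying enzymes (15 of 65, 23.1%), WRKY genes (16 of 72, 22.2%), RNA-binding proteins (6 of 27, 22.2%), ethylene-responsive and AP2/ERF genes (11 of 54, 20.4%), heat shock and chaperone genes (14 of 71, 19.7%) and bZIP genes (9 of 49, 18.4%) all exceeded the 15% of genes with a symbol. WRKY6, WRKY11, WRKY53 and WRKY75 were among the 16 WRKY genes, and ERF4 and ORA59 among the 11 of the ERF group. Other families of factors were lower, with 9 of 104 NAC genes (8.65%), 8 of 98 MADS genes (8.16%), 9 of 112 Aux/IAA and SAUR genes (8.04%) and 7 of 95 homeobox genes (7.37%). Genes of tandem clusters share pairs: 8 MADS genes lay at 7 pairs and 26 cytochrome P450 genes at 20.

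Zinc-finger, histone and WRKY genes also had islands of each line more often than genes in general. OX TZP islands lay at an end of 56.5%, 69.2% and 51.4% of them, against 40.6% of all protein-coding genes, and OX ZFHD10 islands at 81.2%, 75.4% and 81.9%, against 65.1%. RNA-binding genes had OX TZP islands at 37% and OX ZFHD10 islands at 85.2%. Homeobox genes were nearer the background, with 42.1% for OX TZP islands and 64.2% for OX ZFHD10 islands, and 23.3% of the homeobox genes with both had a match, against 48.5% of such WRKY genes and 39.1% of all such genes. Whether the matched share of a family differs beyond its number of islands was not tested.

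Within the large families, the genes given here were picked for the best sum of density ranks over both lists. Their high values follow from that choice. After SIP3, the kinase genes with the best ranks were CPK28, a calcium-dependent kinase (212 in OX TZP, 359 in OX ZFHD10), and the receptor-like kinase CRK2 (207 in OX TZP, 361 in OX ZFHD10). Among transferases they were GPAT3, of lipid synthesis (282 in OX TZP, 377 in OX ZFHD10), AT3G52060 (208 in OX TZP, 380 in OX ZFHD10) and GGT1, of photorespiration (232 in OX TZP, 327 in OX ZFHD10). The stretch at GPAT3 lay over the body of its neighbour NFU1 and not over that of GPAT3. Among transporters they were PMT6 for polyols and sugars (219 in OX TZP, 375 in OX ZFHD10), NRT2.5 for nitrate (197 in OX TZP, 377 in OX ZFHD10) and STP4 for sugars (179 in OX TZP, 391 in OX ZFHD10). The neighbours CYP71B29 and CYP71B7 shared 1 pair (179 in OX TZP, 340 in OX ZFHD10). CYP94B1, of jasmonate turnover, had 168 in OX TZP and 390 in OX ZFHD10. The MYB genes were MYB120 (186 in OX TZP, 464 in OX ZFHD10), MYB73 (188 in OX TZP, 375 in OX ZFHD10) and MYB3 (175 in OX TZP, 402 in OX ZFHD10). At MYB120 and MYB3 the middle of the shared stretch lay between genes.

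Densities varied widely within the larger families. The pairs of kinase genes, taking for each gene its best-ranked pair, had a median of 167 reads per kb in OX TZP (137 to 253) and 280 in OX ZFHD10 (172 to 748), beside 167 and 275 for all pairs. Those of MYB genes had 173 in OX TZP and 306 in OX ZFHD10, those of WRKY genes 182 and 280, and those of cytochrome P450 genes 162 and 253. The 9 stress genes had medians of 182 in OX TZP and 260 in OX ZFHD10, and the 6 light signalling genes 171 and 239. The ranges of these families overlapped one another and that of all matched pairs.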

How the data were processed

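Chromatin was precipitated from 7-day-old seedlings and sequenced as single-end 75 bp reads, per the labels' protocols. Without saying what each was used for, the submitters' processing notes list SICER 1.1, HOMER, Bowtie 0.12.7 and cutadapt 1.5, and TAIR10 as the build. In the names of the lists stand the settings 50 bp (window), 200 bp (gap) and 0.1 (false discovery rate). Column values that the authors deposited were taken as counts of reads per island, because they are whole numbers in the layout that SICER writes. The control library and the treatment of duplicate reads are not given in the sources used here. Nearby windows are merged across gaps, so island length and number depend on depth, and ends fall on steps of 50 bp.

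Positions were counted from 1. Pairs were found with Python 3.11.15, checked with bedtools 2.31.1 (2327 pairs) and tested on simulated data. Counts were divided by island length in kb; percentiles are ranks among the nuclear islands of a list. Genes, types and names came from a RefSeq table of TAIR10.1 without strand or exons, whose positions were checked against the islands in 25 segments of the chromosomes (25 within 200 bp). The exons, introns and untranslated regions, the promoter motifs that had been planned and any sequences were not analysed here. Of 248 listed genes, 237 were located. The members and lists were chosen with earlier results of these data known, and the words that define the families after the files were seen. Genes named with values were the 10 pairs with the best rank sum, the 5 densest of each list, the 5 longest identical pairs, 3 pairs on each side of the limit, matched members of the light, auxin and brassinosteroid lists, up to 6 of every other list (those of best rank sum) and 3 of best rank sum in each of the 5 families with the most matched genes; genes outside the rule were chosen after their values were seen, as were the longest stretches and genes covered whole. Of the genes outside it, RVE1, CBF2, NCED3 and RD29A are given to complete their lists. For shares 95% Wilson intervals are given, and for densities 95% exact Poisson intervals. Alternatives changed the overlap, the islands kept, the gene-end window and the way genes were assigned.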

Additional observations from a re-analysis of the deposited data

How the results depend on the processing

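The number of pairs depends on the overlap demanded. It was 3982 at 30% of each island, 650 at 75% and 120 at 90%, and 835 with islands at or above the median density of their list alone. In the same order the protein-coding genes at an end numbered 5446, 979, 170 and 1269, the genes of the lists 77, 14, 3 and 19, and the genes of the families 757, 157, 26 and 172. The median density percentile of the matched OX TZP islands was 55.8, 60.3, 64.9 and 77.2, and that of the OX ZFHD10 islands was 79.8 in the dense subset, where only the upper part of each list was kept, and 64 when reads were not divided by length. The share of pairs at a gene end was 80.1% in the dense subset, 64.5% with a window of 500 bp outside the gene and 88.9% with 2000 bp. Taking the nearest gene alone gave 2228 genes (8.12%). Of the lists, stress response then had 7 of 19 genes (36.8%), housekeeping 3 of 14 (21.4%) and the clock 4 of 21 (19%). Auxin had 7 of 41 (17.1%) by nearest gene. With the window of 500 bp it had 2 of 41 (4.88%), where all genes had 10.9%. Without the pseudogene-rich bins 2313 pairs and 3378 genes remained. The stress response and clock lists were above the share of all genes in 9 of 9 alternatives, housekeeping, light signalling and photosynthesis in 8, cell wall in 7 and flowering time in 6. Auxin was above it in 3, brassinosteroid, gibberellin and growth bHLH in 3, and ZF-HD and MIF in 2. The share of genes with a symbol, the nearer background, is not given for the alternatives. All alternatives use the same libraries, and at 90% overlap the stress list held 2 matched genes and the clock list 1. Over single lists and families, 204 of 360 alternative counts were within 1.5 times the value given and 156 were not. No paired analysis was possible because each line has 1 library. Nothing here can separate the lines from their libraries, the total depth is unknown, and an island absent from a list may have been missed at that depth.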

Other observations

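By gene bodies, genes of each non-coding type were met less often than protein-coding genes, of which matched pairs lay over the body of 9.13%. The nearest were transfer RNA genes, with 54 of 625 (8.64%). Pairs lay over 165 of 3480 long non-coding RNA genes (4.74%) and 5 of 82 small nuclear RNA genes (6.1%) of the splicing machinery, U1.5, U2.1, U2.14, U6.29 and U6acat. Small nucleolar RNA genes followed with 8 of 287 (2.79%). By gene ends the order differed, with a pair at an end of 37 small nucleolar RNA genes (12.9%), against 12.4% of protein-coding genes, and of 65 transfer RNA genes (10.4%). Many of these RNAs have near-identical copies, and gene length, which differs between the types, was not taken into account.

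Of 326 microRNA genes, 4 lay under a pair (1.23%), MIR158b, MIR168a, MIR472 and MIR5019, and MIR168a makes the microRNA that targets AGO1. OX TZP islands lay over 12% of microRNA genes and OX ZFHD10 islands over 12.3%. Of 3917 pseudogenes, 6 lay under a pair (0.153%), while OX TZP islands lay over 7.63% of them and OX ZFHD10 islands over 2.02%.

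The shared stretch met neither an end nor the body of a protein-coding gene in 146 pairs. Of these, 22 lay over another annotated gene, 14 of them over a long non-coding RNA gene.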
